A study of Rattus norvegicus with 24 samples.

Results

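The genes of 6 transient receptor potential (TRP) channels were followed in single dorsal root ganglion (DRG) neurons of the rat: Trpv1, Trpa1, Trpm8, Trpv2, Trpm3 and Trpm2. They were chosen by name, as 6 of the 32881 genes shared by all tables of unique molecular identifier (UMI) counts, and all 6 had UMIs in every DRG sample. The neurons came from L4 and L5 DRG of male Sprague-Dawley rats and were picked by hand, 1 by 1, after dissociation. In the spared nerve crush (SNC) model the tibial and common peroneal branches of the sciatic nerve are crushed and the sural branch is spared. In the sham operation the nerve is exposed and left whole. For the dye-labelled neurons, of sham and SNC rats alike, the nerve had been exposed before the operation. Dyes were then injected into its branches by glass micropipette. The dye-labelled neurons formed 4 groups of DRG samples, namely labelled sham (n = 4) and SNC after 1 day (n = 4), 3 days (n = 3) and 7 days (n = 5). Of these, 17-1 and 17-2 at 1 day, and 19-1 and 19-2 at 7 days, are counted as separate samples. Within each pair the date of reverse transcription is the same, and whether the samples share animals is not given. A further set of 7 sham libraries, called added sham here, was taken 0 to 7 days after the sham operation, and the labels give no dye for its cells, which the study lists apart from its fluorescently labelled neurons. At least 5 rats gave DRG at each time point, and neurons with crushed and with spared axons are summed in every SNC value.

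Of 1464 cells, 1433 passed the limits of 500 genes, 1000 UMIs and under 5% mitochondrial UMIs, 930 of them labelled and 503 added sham. The median depth was 239286 UMIs per labelled cell and 340145 per added sham cell. The neuronal genes Tubb3 and Uchl1 had UMIs in 100% of these cells and Rbfox3 in 98.46%. The labelled sham samples carried as much RNA of nerve injury genes as the SNC samples. Atf3, an injury-induced transcription factor, stood at 579.8 ± 257.6 CPM (UMI counts scaled to the same total in every sample; SD, n = 4) in labelled sham, at 510.7 to 547.3 CPM as group means in SNC, and at 153.9 ± 47.2 CPM (n = 7) in added sham. Sprr1a, a growth-associated injury gene, stood at 152.2 ± 96.8 CPM in labelled sham and at 0.22 CPM or less in every added sham library. Dye labelling, batch and the added set cannot be told apart here, so both sham sets are given. Every p-value measures the spread between DRG samples or libraries, whose animals the labels do not give.

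TRP channels are cation channels that let sensory endings turn heat, cold and irritants into nerve impulses. Trpv1 opens to heat, acid and capsaicin, Trpa1 to pungent electrophiles such as mustard oil, and Trpm8 to cooling and menthol, which makes these genes classical labels of nociceptors and cold-sensing neurons. Trpm3 responds to heat and neurosteroids, Trpm2 to oxidative stress and ADP-ribose, and Trpv2 is a widely expressed relative of Trpv1 with a much higher heat threshold.

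Labelled and added sham neurons were clustered apart, with the TRP family taken out of the variable genes. Clusters were named after the neuron type list with the largest share of its markers high, and only where at least 3 of them were. Too small a share of the list, or a larger share for a list of other cells such as glia, left a cluster unnamed. The labelled cells gave PEP1-like, PEP2-like and PEP3-like clusters (peptidergic types), an NF-like (neurofilament, large-fibre) cluster, an NP-like (nonpeptidergic) cluster and a pair of SST-like (itch-type) clusters, which share Nppb, Il31ra and Osmr as high markers and are told apart by Sst (SST-like Sst and SST-like Osmr). The other 3 labelled clusters stayed unnamed and are called by their leading genes, Nppa with S100a16, Foxp2 with Penk, and Apoe with Tyrp1, the last with all 6 glial markers high. A name does not exclude markers of another list. The SST-like Sst cluster had 4 of 6 SST and 14 of 26 PEP3 markers high, and the NP-like cluster 5 of 6 NP and 8 of 26 PEP3 markers. Since clusters come from the same cells, levels by cluster are a description. They are given as mean CPM ± SD over those DRG samples that held 3 or more such cells. The PEP1, PEP2 and PEP3 marker lists hold genes that the study reports for these types from the same data. Trpv1 and Trpa1 stand among its PEP3 genes and were left out of the list. Their level in the PEP3-like cluster is thus not independent of its name. UMIs were counted at the 3′ end with no length scaling, so levels are compared within a gene and not between genes.

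Trpv1 was highest in the NP-like cluster, at 170.6 ± 47.2 CPM (n = 8), and in the PEP3-like cluster, at 165.3 ± 59.8 CPM (n = 11). The Apoe/Tyrp1 (132.0 ± 92.4 CPM), Foxp2/Penk (127.0 ± 127.8 CPM) and SST-like Sst clusters (122.2 ± 26.9 CPM) followed. These 5 clusters did not differ beyond their spread from their neighbours in the order. A gap larger than the spread separated them from the PEP1-like cluster at 47.4 ± 23.3 CPM (n = 16). Below it came the SST-like Osmr cluster at 40.5 ± 18.8 CPM, the Nppa/S100a16 cluster at 27.8 ± 20.2 CPM, PEP2-like neurons at 20.2 ± 21.9 CPM and NF-like neurons at 5.4 ± 3.3 CPM (n = 12). Which cluster led depended on the processing, the PEP3-like one at a coarser clustering or with both sets clustered together and the Foxp2/Penk one with thinned cells. From the highest to the lowest cluster Trpv1 spanned 31.8-fold, and the 107 PEP3-like neurons, 11.5% of labelled cells, held 25.0% of all Trpv1 UMIs.

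Trpa1 had its highest level in the PEP3-like cluster at 183.0 ± 90.9 CPM (n = 11), and these cells held 36.7% of all labelled Trpa1 UMIs. The SST-like Sst cluster came next at 136.8 ± 76.4 CPM (n = 8), within the spread. It stood at 60.1 ± 31.3 CPM in the SST-like Osmr, 40.1 ± 35.8 CPM in the NP-like and 37.8 ± 26.7 CPM in the PEP1-like cluster. Neighbours in this order stayed within their spread as far down as PEP2-like neurons (10.4 ± 7.5 CPM), which lay above NF-like neurons (2.2 ± 2.2 CPM) by more than it. Nppa/S100a16 neurons were the lowest at 1.2 ± 0.9 CPM (n = 15), and none of their 86 cells was positive for Trpa1, which allows a share of up to 3.49% (counting error only). From the highest to the lowest cluster Trpa1 spanned 155-fold.

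Trpm8 was carried by a pair of small unnamed clusters. It reached 325.3 ± 177.3 CPM (n = 5) in the Foxp2/Penk cluster, beyond the spread above the Nppa/S100a16 cluster at 94.4 ± 60.5 CPM (n = 15). Together with the Apoe/Tyrp1 cluster (68.1 ± 103.1 CPM, n = 7) these were followed by clusters at 20.9 CPM or less, down to 4.5 ± 3.5 CPM in NF-like neurons. Nppa/S100a16 neurons, 9.25% of labelled cells, held 40.6% of Trpm8 UMIs, and Foxp2/Penk neurons, 3.12% of cells, held 23.2%. In the Foxp2/Penk cluster Trpm8 stood at 293.5 CPM in sham sample 10, at 629.4, 296.6 and 233.1 CPM in the 3 SNC 3 day samples and at 174.0 CPM in SNC 7 day sample S, from 3 to 6 cells each.

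The other 3 members varied less between clusters. Trpv2 ranged from 122.0 ± 15.3 CPM in NP-like to 87.6 ± 17.5 CPM in PEP2-like neurons, a span of 1.39-fold, and no pair of neighbours differed beyond the spread. Trpm3 ranged from 22.4 ± 9.7 CPM in PEP3-like and 21.9 ± 11.9 CPM in NP-like to 4.8 ± 4.1 CPM in NF-like neurons, a span of 4.70-fold. Trpm2 lay between 5.4 and 3.0 CPM in every cluster, and its highest and lowest clusters did not differ beyond their spread. For the other 5 members they did, though for Trpv2 not at a coarser clustering. With both sets clustered together, and with thinned cells, Trpv2 did not differ beyond the spread and Trpm2 did.

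In added sham neurons the highest Trpv1 level was that of a cluster also named NP-like, at 431.9 ± 35.2 CPM (n = 7). Its leading genes differed from those of the labelled NP-like cluster, and it was not shown to hold the same kind of cells. A Cav1/Sqor cluster followed at 363.9 ± 35.4 CPM (n = 7), SST-like neurons stood at 166.3 ± 26.9 CPM (n = 6), and NF-like neurons were lowest at 24.8 ± 11.5 CPM (n = 5). Trpa1 was highest in SST-like neurons, at 67.4 ± 20.3 CPM (n = 6), beyond the spread above the Cav1/Sqor cluster at 26.98 ± 7.5 CPM. NP-like neurons held 1.6 ± 2.9 CPM of Trpa1 there. Trpm8 was highest in a Kcng1/Chp2 cluster, whose 104 cells (20.7% of added sham cells) held 60.5% of the Trpm8 UMIs, at 94.8 ± 118.1 CPM. That Trpm8 level was uneven between libraries, with 334.6 CPM from the 3 cells of library S2 and 27.5 to 60.0 CPM in the other 5 libraries. The Kcng1/Chp2 cluster had 6 PEP1 and 7 PEP3 markers high and stayed unnamed. Trpv2 ranged from 193.7 ± 29.4 CPM in a Cd7/Nmu cluster to 84.8 ± 26.2 CPM in SST-like neurons. Trpm3 ranged from 29.3 ± 11.6 CPM in NP-like to 5.8 ± 4.8 CPM in Cd7/Nmu neurons, and Trpm2 from 6.2 ± 7.2 to 0.9 ± 0.3 CPM.

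**Figure D1:**
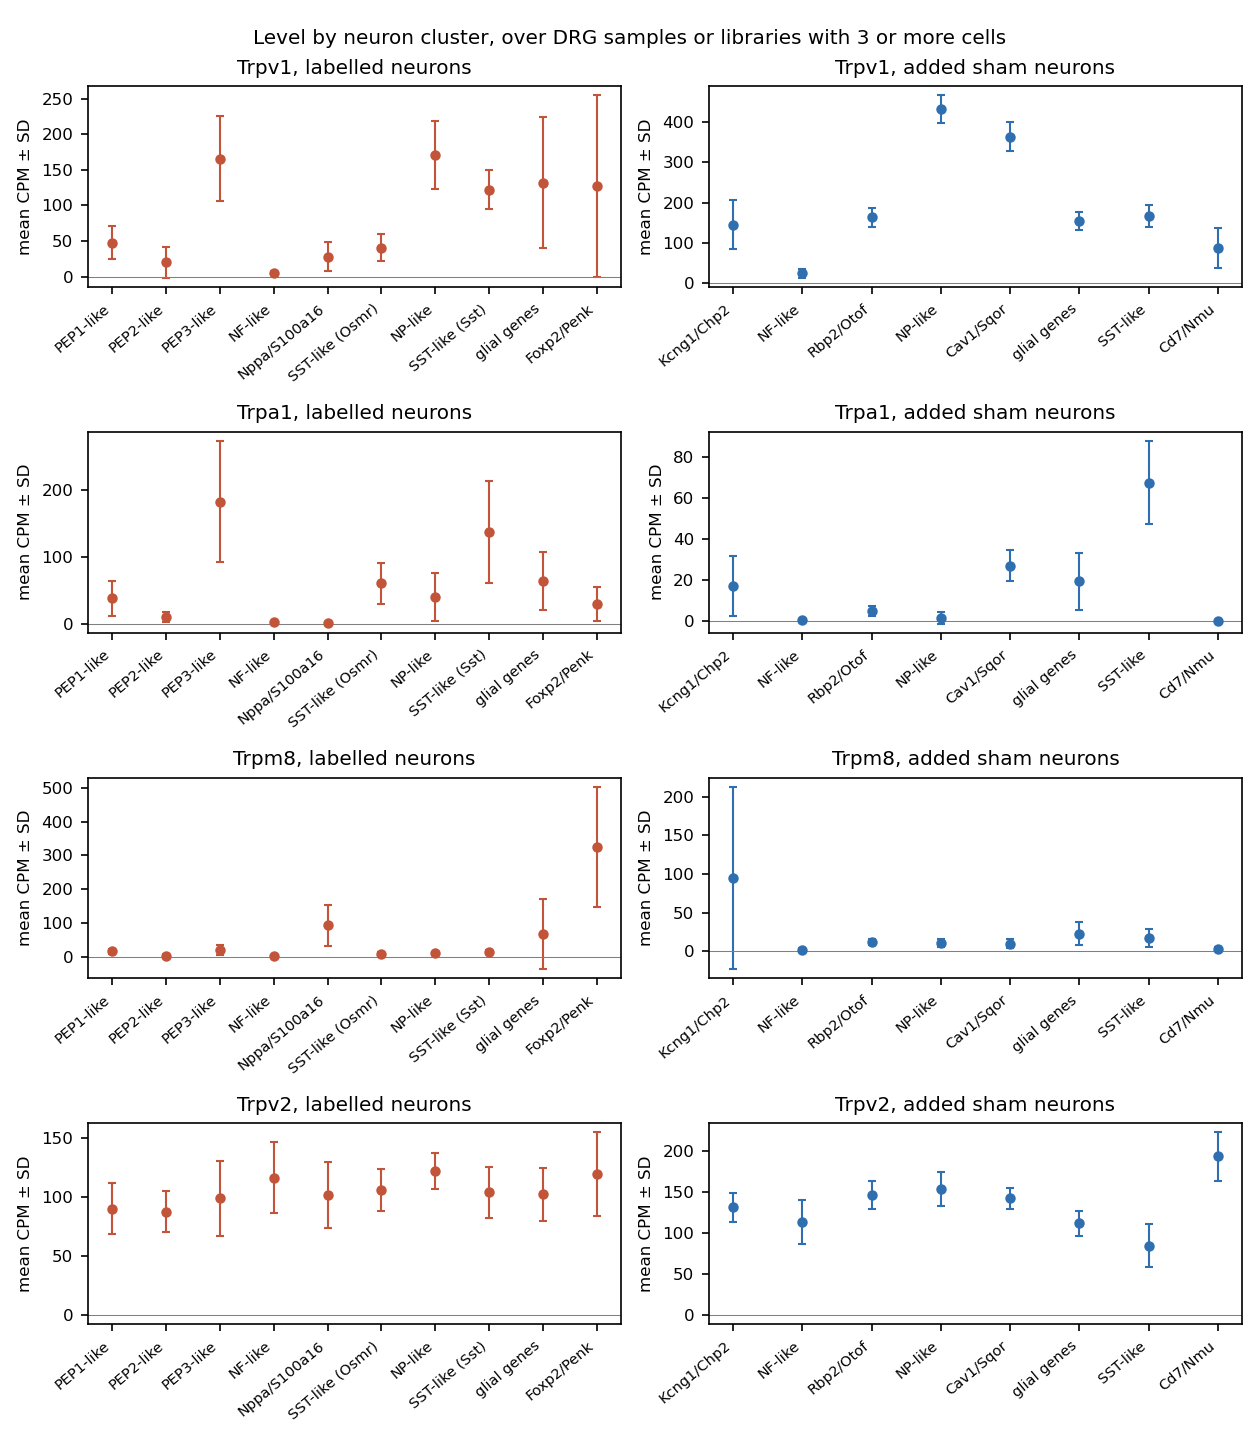
Mean CPM (points) and SD over DRG samples or libraries (bars) of Trpv1, Trpa1, Trpm8 and Trpv2 in the 10 clusters of labelled neurons (left) and the 8 clusters of added sham neurons (right), each panel with its own axis. Trpv1 and Trpa1 peak in PEP3-like, NP-like or SST-like clusters, Trpm8 in the Foxp2/Penk, Nppa/S100a16 and Kcng1/Chp2 clusters, and Trpv2 spans 1.39-fold among the labelled clusters.

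To ask which of these channel genes share a neuron, a cell was called positive for a gene with at least 3 UMIs and at least 20 CPM. Of the 930 labelled neurons, 447 were positive for Trpv1, 365 for Trpa1, 199 for Trpm8, 797 for Trpv2, 169 for Trpm3 and 23 for Trpm2. A UMI count of 1 or more is a poor guide for these deep cells. NF-like neurons, the type with the least Trpv1, had at least 1 Trpv1 UMI in 72.5% of cells at a median of 526885 UMIs, and none of the 91 was positive (which allows a share of up to 3.30%).

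Trpa1 lay mostly inside the Trpv1 neurons. Of the 365 Trpa1-positive labelled neurons, 275 (75.3%) were also positive for Trpv1, against 30.4% of Trpa1-negative neurons. Within samples the difference was 44.5 ± 13.9 percentage points (SD, n = 15), and it was positive in 15 of 15 samples (adjusted p = 0.0006, exact two-sided sign-flip permutation test over samples, 10 pairs tested). Conversely, 61.5% of Trpv1-positive neurons were positive for Trpa1. In the added sham set all 93 Trpa1-positive neurons were Trpv1-positive, against 82.4% of the others, a difference of 17.5 ± 15.1 points (7 of 7 libraries, adjusted p = 0.0391, exact sign-flip test, whose smallest unadjusted p here is 0.0156).

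The positive calls followed the clusters. Trpv1 was positive in 96.5% of SST-like Sst, 88.3% of NP-like and 87.9% of PEP3-like neurons, in 52.3% of PEP1-like and in 17.7% of PEP2-like neurons. Trpa1 was positive in 94.7% of SST-like Sst, 89.7% of PEP3-like and 73.6% of SST-like Osmr neurons. Trpm8 was positive in 79.3% of Foxp2/Penk and 66.3% of Nppa/S100a16 neurons, and in 24.9% of cells or fewer in the other clusters, down to 2.20% in NF-like neurons. Trpm3 reached 45.0% in NP-like neurons at most. In added sham neurons Trpv1 was positive in 100% of NP-like and in 62.6% of NF-like neurons. That NF-like share was uneven, at 84.1% in library S4 (44 of the 99 cells), 72.7% in S3, 50.0% in S5, 27.3% in S6 and 14.3% in S7. The mean NF-like level of 24.8 ± 11.5 CPM lay near the 20 CPM limit for a positive cell. Trpa1 was positive in 82.1% of SST-like and 60.3% of Cav1/Sqor neurons and in 3.90% of NP-like ones.

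The overlap of Trpa1 with Trpv1 was uneven between neuron types. Both genes were positive in 79.4% of PEP3-like and 91.2% of SST-like Sst neurons. In PEP2-like neurons 13 of 31 Trpa1-positive cells (41.9%) had Trpv1, against 13.0% of Trpa1-negative ones, and in PEP1-like neurons the shares were 65.8% and 44.2%. In SST-like Osmr neurons they were 56.6% and 63.2%, so there the share was no higher in Trpa1-positive cells. These shares within types are counts of cells and were not tested. The difference of 44.5 points is over all types together, and what the mixture of types adds to it was not tested.

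Among labelled neurons, Trpm3-positive ones were also richer in the heat and irritant channels. Among 169 of them, 125 (74.0%) were Trpv1-positive, with a within-sample difference of 35.4 ± 20.5 points (11 of 11 samples, adjusted p = 0.0033, exact sign-flip test). For Trpa1 the difference was 24.1 ± 19.4 points (9 of 11 samples, adjusted p = 0.0098, exact sign-flip test). Neither pair passed in added sham, at 12.1 ± 12.4 points for Trpm3 with Trpv1 (adjusted p = 0.078, exact sign-flip test). Trpa1-positive neurons held Trpm3 there in 16.0 ± 21.6 points more cells (adjusted p = 0.139, exact sign-flip test). Labelled Trpm8-positive neurons held Trpv1 in 58.8% of cells, 11.7 ± 20.5 points more than Trpm8-negative ones (11 of 13 samples, adjusted p = 0.068, exact sign-flip test). With 50 CPM as the limit for a positive cell this difference turned to −10.1 points. For Trpm8 with Trpa1 the difference was 3.5 ± 12.5 points (6 of 13 samples, adjusted p = 0.340, exact sign-flip test), and −3.61 points at 50 CPM. Of the 10 pairs that could be tested in labelled neurons, 7 passed an adjusted p of 0.05. Among these, 4 were the pairs with Trpv2, whose positive cells are most cells. Those 4 no longer passed when each cell was thinned to 50000 UMIs and 1 UMI counted as positive, and the 3 pairs of Trpm8 with Trpv1, Trpa1 and Trpm3 then did. Pairs with Trpm2 had too few positive cells to test.

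Counting Trpv1, Trpa1 and Trpm8 together, 35.6% of labelled neurons were positive for none of the 3. Trpv1 with Trpa1 was the commonest combination at 23.0%, followed by Trpv1 alone at 12.5%, Trpa1 alone at 7.53%, Trpm8 alone at 6.67%, all 3 at 6.56%, Trpv1 with Trpm8 at 6.02% and Trpa1 with Trpm8 at 2.15%. In Nppa/S100a16 neurons, 20 of 57 Trpm8-positive cells (35.1%) also had Trpv1, against 10.3% of Trpm8-negative ones. Over all 6 members, 9.14% of labelled neurons were positive for none and none for all 6. In added sham neurons Trpv1 alone was commonest, at 50.9%, and no neuron (0 of 503, which allows a share of up to 0.596%) was positive for Trpa1 without Trpv1. The added sham cells were sequenced more deeply, and the combinations were not tested between the sets.

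**Figure D2:**
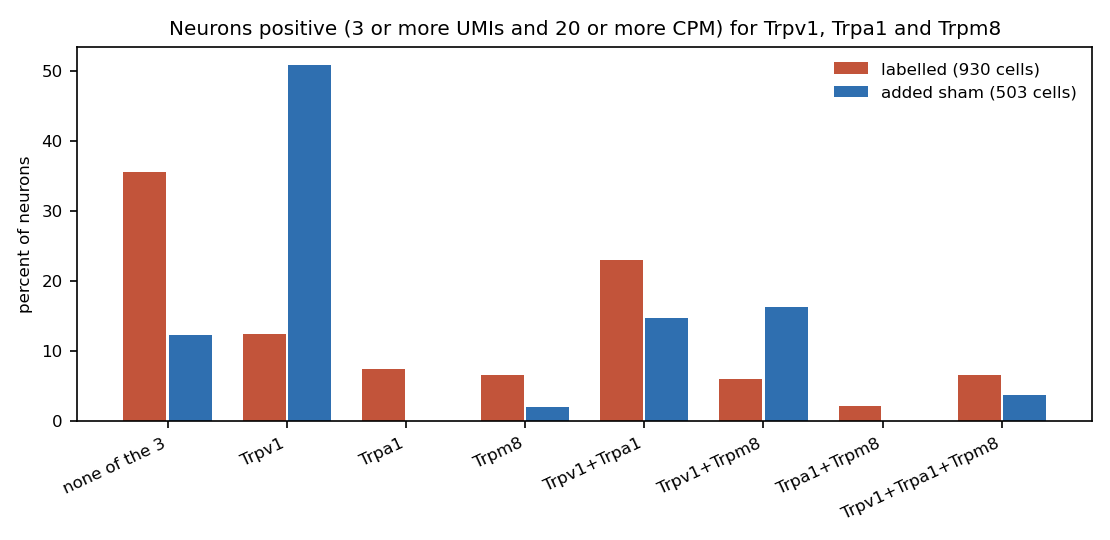
Percent of neurons (vertical axis) in each combination of Trpv1, Trpa1 and Trpm8 positive calls, for 930 labelled (red) and 503 added sham neurons (blue). Neurons with Trpv1 alone make up 12.5% of the labelled and 50.9% of the added sham bars, and Trpa1 without Trpv1 appears in the labelled bars only.

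Across single cells the correlation of log2(CPM + 1) values was highest for Trpv1 with Trpa1, r = 0.47 in 930 labelled and 0.36 in 503 added sham cells. Trpv1 with Trpm3 gave 0.32 and 0.31. The genes most like Trpv1 in both sets, among 9162 genes with a mean of 5 CPM or more, were Ldb2 (r = 0.61 and 0.66), Nell1, Scn10a, which encodes the nociceptor sodium channel Nav1.8, Atp1b3 and Tcte1. For Trpa1 they were Mal2 (r = 0.53 and 0.50), Sphkap, Fgf13, Lrrk1 and Emp3. Trpm8 had no close companion, Scg2 leading with r = 0.31 and 0.29 before Kcnmb2, Sytl3, Rit2 and Acy3. Trpv2 went with Stx12 (r = 0.52 and 0.53), Eif3l, Slc44a2, Nagk and Fam219b. Trpm3 went with Prkca (r = 0.32 and 0.37), Gpr149, Nell1, Trpv1 and Ice1. Trpm2, at its low level, gave 0.23 and 0.24 with Rrp36 at most, followed by AABR07071876.1, LOC299312, LOC100910678 and Ggct. Ldb2, Scn10a, Atp1b3, Fgf13, Scg2 and Rit2 stand in the PEP3 marker list as well, so they were among the genes that name clusters. Cells of 1 library share depth and preparation, so these values describe the cells and carry no test.

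The level of each member per DRG sample was then compared between SNC and labelled sham, on UMI counts summed over all neurons of a sample. Trpv1 stood at 19.2, 38.5, 86.1 and 95.9 CPM in the 4 labelled sham samples. After SNC it stood at 56.6, 67.1, 69.7 and 75.9 CPM at 1 day, at 57.5, 57.8 and 86.1 CPM at 3 days, and at 21.01, 39.9, 40.2, 56.5 and 112.2 CPM at 7 days. The sham samples spread widely and every SNC group lay within or across their range. Trpa1 stood at 21.7, 33.0, 40.6 and 52.6 CPM in labelled sham. It stood at 19.5, 24.6, 27.2 and 70.9 CPM at 1 day, 30.4, 44.9 and 70.1 CPM at 3 days, and 10.9, 29.4, 30.4, 50.7 and 54.2 CPM at 7 days. These groups overlapped as well.

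Trpm8 ranged from 14.9 to 59.2 CPM in labelled sham, from 14.4 to 45.5 CPM at 1 day, from 29.5 to 38.5 CPM at 3 days and from 9.55 to 53.1 CPM at 7 days. Trpv2 was the steadiest, with 87.6 to 109.9 CPM in labelled sham and 88.5 to 143.8, 99.3 to 105.1 and 91.0 to 124.6 CPM at 1, 3 and 7 days. Trpm3 lay at 6.98 to 17.8 CPM in labelled sham and within 7.81 to 16.0 CPM in all SNC samples. Trpm2 lay at 3.89 to 7.50 CPM in labelled sham and within 3.03 to 6.21 CPM in all SNC samples. None of the 6 genes had an SNC group that did not overlap labelled sham, where 3.39%, 5.70% and 1.06% of the 14239 genes tested did not overlap at 1, 3 and 7 days.

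**Figure D3:**
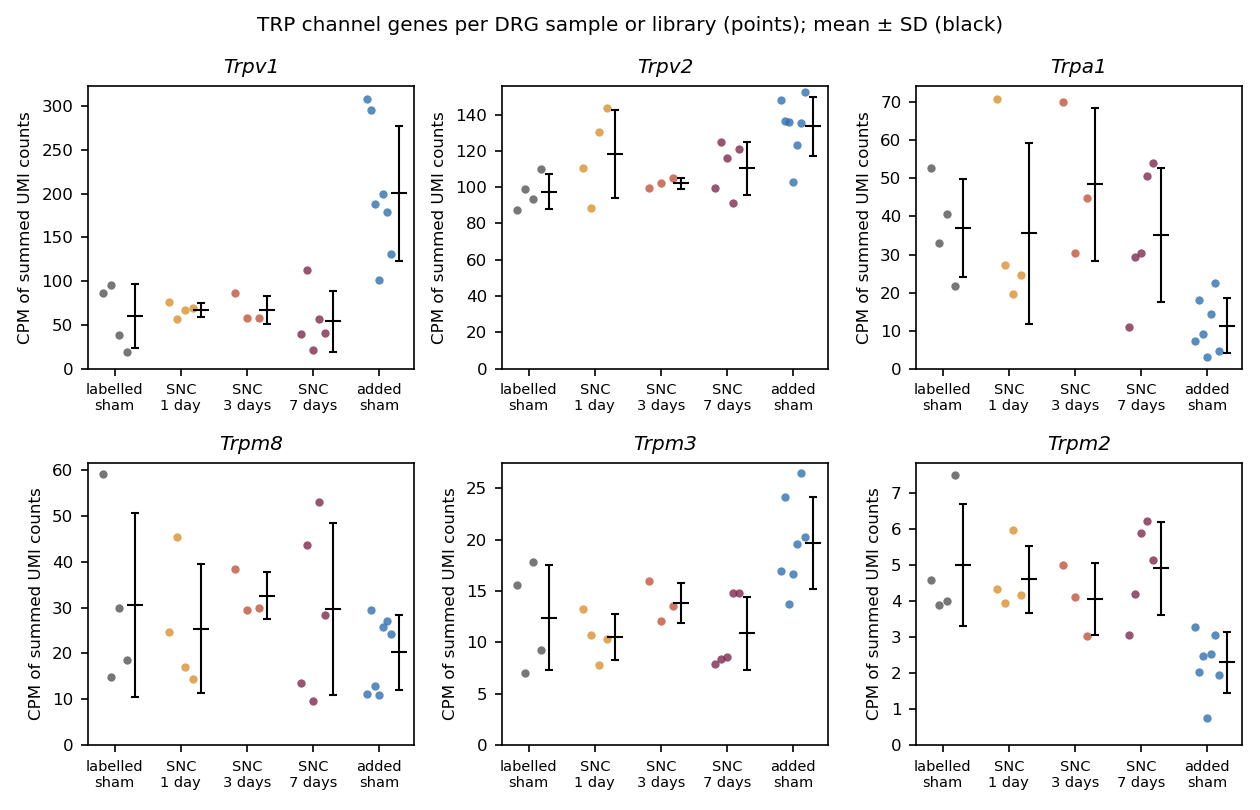
CPM of each member in every DRG sample or library (points), with mean and SD (black) per group. The labelled sham and SNC points overlap for all 6 genes, the added sham points for Trpv1 (101.4 to 308.9) lie above all labelled sham points, and those for Trpm2 (0.75 to 3.28) lie below them.

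No member passed in edgeR's quasi-likelihood test with Benjamini-Hochberg adjustment over 14239 genes, and neither did any other gene, since 0 genes (0%) were called at each time. At an unadjusted p under 0.05 there were 1243, 594 and 476 genes at 1, 3 and 7 days, none of them a member, and DESeq2 called 17, 1 and 0 genes. At 1 day the log2 fold change against labelled sham was 0.11 for Trpv1 (95% interval −0.81 to 1.02), −0.11 for Trpa1 (−1.05 to 0.83) and −0.29 for Trpm8 (−1.38 to 0.80). It was 0.20 for Trpv2 (−0.11 to 0.50), −0.29 for Trpm3 (−0.92 to 0.35) and −0.18 for Trpm2 (−0.85 to 0.49). At 3 days the 6 values lay between −0.32 (Trpm2) and 0.36 (Trpa1), and at 7 days between −0.23 (Trpm3) and 0.12 (Trpv2), with all adjusted p at 0.715 or more over the 3 times. The intervals were widest for Trpm8, Trpa1 and Trpv1 and narrowest for Trpv2, and changes inside them were not detectable with these samples. Labelled sham carried as much Atf3 and Sprr1a RNA as SNC, so these values do not set SNC against neurons low in injury genes.

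These estimates differed when the fits were limited to 1 year of reverse transcription. All SNC 1 and 3 day samples and 1 labelled sham sample (18) were reverse transcribed in the later of 2 years. The other 3 labelled sham samples were from the earlier one. In the later year, year thus cannot be told apart from the choice of sham sample 18. Within the later year the Trpv1 estimate was −0.56 at 1 day and −0.53 at 3 days, below 0 in place of above it, while Trpm8 was 0.76 and 1.11 and Trpm3 0.56 and 0.98. At 7 days Trpv1 was −0.35 within the earlier year (3 against 3 samples) and −0.34 within the later one. With date of reverse transcription as a block, over the 9 samples that shared 1 of 3 dates with another group, Trpv1 was −0.96, −1.07 and −0.73 at 1, 3 and 7 days (edgeR, adjusted p of 0.509 or more). The 1 and 3 day samples shared a date only with 7 day samples, so their values rest on those. No within-year value passed (edgeR, adjusted p of 0.972 or more), and within the later year the lone sham sample is assumed to vary like the other groups.

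**Figure D4:**
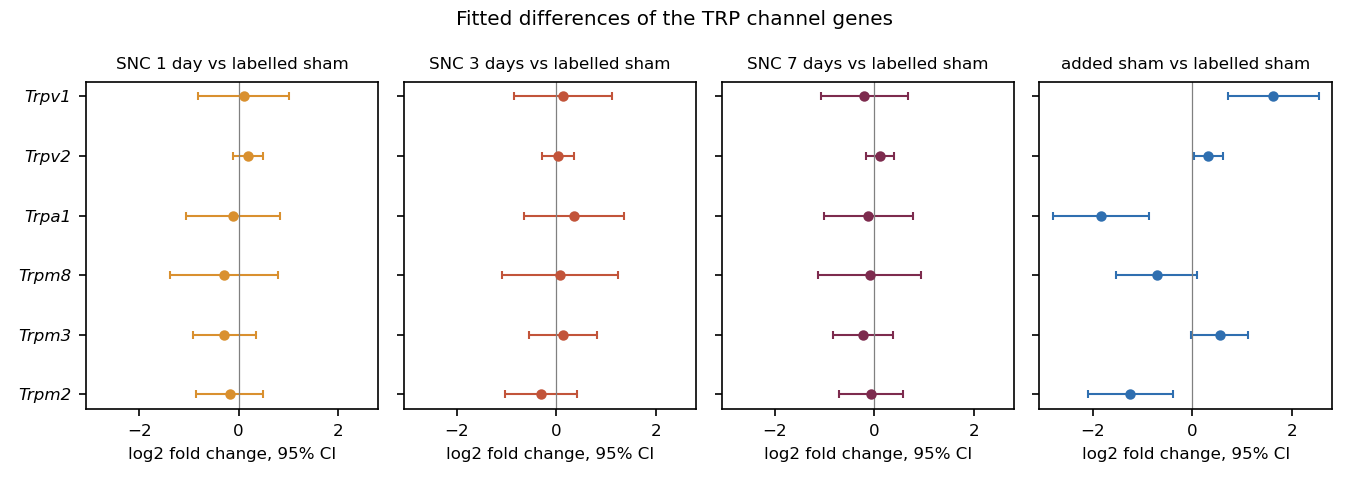
Log2 fold change (points, horizontal axis) with 95% confidence interval (bars) for the 6 members, from edgeR's quasi-likelihood fits of summed UMI counts. All SNC intervals include 0, whereas in the added sham panel Trpv1 lies above 0 at 1.63 and Trpa1 (−1.84) and Trpm2 (−1.24) lie below it.

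The share of positive neurons gave the same picture for most members. Trpv1-positive neurons made up 38.5 ± 15.0% in labelled sham and 54.7 ± 8.1%, 49.8 ± 5.3% and 46.9 ± 13.1% at 1, 3 and 7 days. Trpm8-positive neurons made up 21.5 ± 10.3% in labelled sham and between 20.96% and 22.4% as group means after SNC. For Trpv2 the shares in labelled sham were 77.1, 79.2, 83.0 and 83.3%, against 84.4, 85.1, 91.7 and 95.8% at 1 day and 85.4, 87.5, 90.6, 91.7 and 100% at 7 days. Both SNC groups lay above labelled sham without overlap, where 3.26% and 3.13% of 9553 genes did so. The differences were 8.60 and 10.4 points, with p = 0.0286 and p = 0.0159 (exact two-sided permutation test), the smallest these designs allow, and an adjusted p of 0.257 for both over 18 values. Thinned to 50000 UMIs per cell, with 1 UMI as positive, they were 0.34 and 1.93 points. None of the 18 shares passed after adjustment.

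Summed counts mix neuron types, so the fits were repeated within the 6 labelled clusters that had at least 2 samples in each group. Of 99 values of a member in a cluster at a time, 0 had an adjusted p under 0.05 in edgeR's test, where 0.00104% of all values over genes did. An unadjusted p under 0.05 was reached by 9 of them (9.09%, where all genes gave 5.01%). The lowest p belonged to Trpv1 in PEP2-like neurons at 1 day. There it stood at 2.4, 6.4, 9.5 and 9.9 CPM in the labelled sham samples and at 18.7, 32.1, 54.8 and 80.8 CPM at 1 day. These groups did not overlap, as for 2.17% of the 10117 genes tested there in this direction. By 3 days it stood at 1.1, 20.9 and 38.8 CPM, and at 7 days at 6.0, 6.1, 6.9, 8.0 and 21.04 CPM, both overlapping labelled sham. At 1 day the log2 fold change was 2.67 (SE 0.62; unadjusted p = 0.0003, adjusted p = 0.297 in edgeR's test), while DESeq2 gave 2.69 with an adjusted p of 0.0150. The values rest on 3 to 22 PEP2-like neurons per SNC 1 day sample and 7 to 14 per labelled sham sample. Few of these cells carried Trpv1. It was positive in 26.7, 31.8, 16.7 and 66.7% of them in samples 13, 16, 17-1 and 17-2, against 0 to 14.3% in labelled sham.

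Among the other 8 values, all were positive. Trpa1 in PEP2-like neurons gave log2 fold changes of 1.71 at 1 day and 1.53 at 3 days, and Trpv1 there gave 1.51 at 3 days. In PEP1-like neurons Trpv1 stood at 3.0, 22.4, 24.0 and 53.5 CPM in labelled sham and at 40.9, 57.9, 63.9 and 77.1 CPM at 1 day, overlapping, with a log2 fold change of 0.94 (adjusted p = 0.352, edgeR). The 7 day value there was 0.88. In PEP3-like neurons Trpa1 stood at 86.7, 161.8 and 188.2 CPM in labelled sham and at 164.1, 281.7 and 401.0 CPM at 7 days, overlapping, with a log2 fold change of 0.98 (adjusted p = 0.913, edgeR). The 7 day values there rest on 3 to 6 cells per sample. Trpa1 in NF-like neurons at 3 days (2.51) was a difference between levels of 6.2 CPM or less, without overlap, as for 5.92% of the genes tested there in this direction. Trpv1 in SST-like Osmr neurons stood at 8.4, 29.1 and 34.1 CPM in labelled sham and at 42.4, 48.9, 53.3 and 69.9 CPM at 7 days, without overlap, as for 4.40% of genes there, with a log2 fold change of 1.05. None of these passed the adjusted threshold in edgeR's test.

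**Figure D5:**
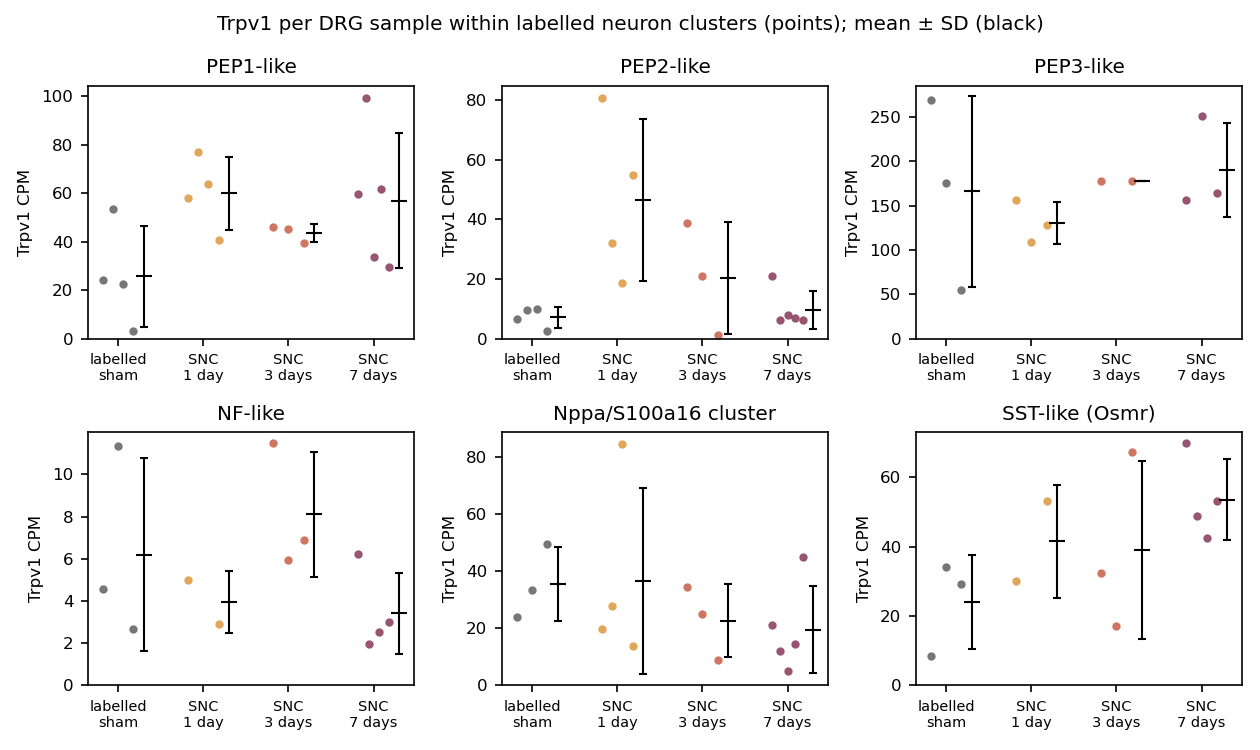
Trpv1 CPM per DRG sample (points) with mean and SD (black) within the 6 labelled clusters that were tested, by group. In PEP2-like neurons the 4 SNC 1 day points (18.7 to 80.8) lie above the 4 labelled sham points (2.4 to 9.9), while the other panels overlap at 1 day.

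Between the sham sets the same genes stood far apart. Trpv1 reached 101.4, 130.7, 178.8, 188.7, 199.5, 295.8 and 308.9 CPM in the 7 added sham libraries (median 188.7), all above the labelled sham maximum of 95.9 CPM. Trpa1 stood at 3.11, 9.19 and 22.5 CPM (lowest, median, highest), with only 1 library reaching into the labelled sham range of 21.7 to 52.6 CPM. Trpm2 stood at 0.75, 2.47 and 3.28 CPM, all below labelled sham. Trpm8 (10.9 to 29.5 CPM) lay inside the labelled sham range but for its lowest libraries, while Trpv2 (102.9 to 152.5 CPM) and Trpm3 (13.8 to 26.5 CPM) reached above theirs. In edgeR's test Trpv1 was higher by a log2 fold change of 1.63 (SE 0.43, adjusted p = 0.0087), Trpa1 lower by −1.84 (SE 0.45, adjusted p = 0.0060) and Trpm2 lower by −1.24 (SE 0.39, adjusted p = 0.0234). Without labelled sham sample Xin, which had the highest glial sum (1330 CPM), the Trpm2 call was lost (−1.01, adjusted p = 0.0688, edgeR). So 3 of 6 members were called, where 40.6% of 15791 genes were (24.2% higher, 16.5% lower), and the fitted values of all genes were centred at 0.15. Trpv2 (0.32, adjusted p = 0.0683), Trpm3 (0.55, adjusted p = 0.119) and Trpm8 (−0.72, adjusted p = 0.146) did not pass in edgeR's test. Trpv1 and Trpm2 did not overlap between the sets, where 19.9% of genes did not overlap with added sham higher and 7.72% with it lower.

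Time after the sham operation did not order the Trpv1 values. The 3 libraries of day 0 stood at 130.7, 295.8 and 308.9 CPM, those of day 1 at 178.8 and 188.7 CPM, and the single libraries of days 3 and 7 at 101.4 and 199.5 CPM. The spread at day 0 thus covered all other days but day 3. Among Trpv1-positive cells alone the level was 255.7 ± 74.1 CPM in added sham (n = 7) and 108.6 ± 49.3 CPM in labelled sham (n = 4), with group means of 100.9 to 112.8 CPM after SNC.

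Clusters of the same name were made apart in the 2 sets, and for the NP-like and NF-like ones they were not shown to hold the same kind of cells. With all labelled and added cells clustered together, the NP-like clusters held 76 added and 2 labelled cells or 58 and 0. NF-like clusters held 100 and 11 or 0 and 79, and the SST-like cluster held 28 and 129. An unnamed cluster in which the NP markers P2rx3 and Grik1 were high held 92 added and 72 labelled cells. The labelled NP-like cluster was led by Chrna3, Mrgprb4 and Il7r and the added one by Slc16a12, Iapp and Crh, while Mrgprb4 and Casr were also among the leading genes of the added Rbp2/Otof cluster. The following values were chosen after the pooled ones were seen.

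In the NP-like clusters Trpv1 stood at 131.2, 195.3 and 260.6 CPM in labelled sham (3 samples) and at 375.2 to 475.8 CPM in added sham (7 libraries, median 426.5). These did not overlap, as for 20.2% of genes in this direction (log2 fold change 1.13, adjusted p = 0.0003, edgeR, with 38.1% of genes called). In the added Rbp2/Otof cluster, by contrast, Trpv1 stood at 124.7 to 192.7 CPM (6 libraries), overlapping the labelled NP-like values. Trpa1 stood at 1.9, 17.7 and 104.0 CPM in labelled NP-like cells, at 0 to 8.0 CPM in added NP-like cells (−4.49, adjusted p = 0.0017, edgeR) and at 1.3 to 8.7 CPM in the Rbp2/Otof cluster, with overlap in both.

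The labelled SST-like cells fell into 2 clusters. Pooled, these stood at 27.6, 58.0 and 122.8 CPM of Trpv1, against 114.1 to 185.7 CPM in added sham (6 libraries), overlapping (1.19, adjusted p = 0.0107, edgeR, with 31.8% of genes called). The Sst cluster alone stood at 120.5 and 148.9 CPM in the 2 labelled sham samples that had it, inside the added range. In NF-like cells Trpv1 stood at 6.2 ± 4.6 CPM (n = 3) against 24.8 ± 11.5 CPM (n = 5), without overlap, as for 23.4% of genes in this direction (1.74, adjusted p = 0.0387, edgeR, with 27.6% of genes called).

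Glial genes moved between samples as well. The summed level of 6 glial markers, all of which had UMIs in every sample, ran from 181.1 to 1330 CPM in labelled sham, from 122.0 to 1063 CPM in the SNC groups and from 121.6 to 823.2 CPM in added sham. Without the clusters rich in glial markers the sham differences were as large, at 1.79 for Trpv1, −1.76 for Trpa1 and −1.36 for Trpm2. Immune, endothelial and fibroblast markers each summed to 47.1 CPM or less in every sample. Erythroid markers summed to 23.1 CPM or less but for 150.0 CPM in SNC 7 day sample 19-2. That sample also had the highest Trpv1 level of its group (112.2 CPM). By the labels it held 20 indirectly injured (spared) and 4 directly injured (crushed) cells. Sample 19-1, with 4 and 20 such cells, stood at 39.9 CPM of Trpv1. The part of erythroid RNA or of the crushed and spared make-up in these levels was not tested.

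Relatives and partners of these channels were read from 3 lists. None of their genes passed at any time after SNC (edgeR, 0 of 45 tested). The lowest unadjusted p at 1, 3 and 7 days belonged to Mcoln1 (0.255), Mcoln1 (0.150) and Trpv4 (0.0112) among other TRP genes. Among TRP partners it belonged at 1 and 3 days to Cdk5 (0.0086 and 0.0534), a kinase that phosphorylates Trpv1. Among thermal and nociceptor channels it belonged to Ano1 (0.0762), Scn10a (0.363) and Kcnk18 (0.0198). The highest levels over labelled samples were those of Trpm7, Mcoln1 and Trpc1 among other TRP genes (37.4, 36.5 and 23.2 CPM), and those of partners included Gnao1 and Cdk5 (349.8 and 317.7 CPM). Among channels they were those of Scn9a, Asic3 and P2rx3 (416.7, 248.7 and 232.4 CPM).

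Between the sham sets, 5 of the 14 other TRP genes tested were higher in added sham and 0 lower, where 24.2% of all genes were higher and 16.5% lower. They included Trpc6 (log2 fold change 3.30), Trpc1 (1.54), Trpm4 (0.92) and Mcoln1 (0.59), with adjusted p from 5.01e-05 to 0.0205 in edgeR's test. The median of the 14 was 0.80, against 0.15 over all genes. Among 17 partners, 2 were higher, the kinase gene Prkce (1.52) and the GABA-B receptor gene Gabbr1 (1.38), and 3 were lower, among them Ptger4 (−2.64) and Cdk5 (−0.46), so 5 of 17 were called where 40.6% of all genes were. Among 14 thermal and nociceptor channels 3 were higher, the sodium channel genes Scn11a (1.74) and Scn10a (1.70) and the touch channel gene Piezo2 (0.88), and 0 lower, again beside 40.6% of all genes called. Scn10a, which went with Trpv1 across single cells, stood at 409.6 ± 106.7 CPM in added and 115.9 ± 54.0 CPM in labelled sham.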

How the data were processed

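Single neurons were profiled with a modified Smart-seq2 protocol that tags the 3′ end of each transcript with a UMI. STAR placed the reads on build Rnor_6.0, featureCounts gave them to genes and UMI-tools collapsed them, and the authors deposited the resulting UMI counts per gene and cell without normalization. Cells were kept that had 500 or more genes, 1000 or more UMIs and less than 5% of UMIs from 13 mitochondrial genes. Cells were clustered in Seurat 5.3.0 (2000 variable genes less the TRP family, 40 components, resolution 0.5), labelled and added sham sets apart. Doublets were not called, since cells were picked singly.

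Counts were summed over cells of each DRG sample (the libraries of sample S together) and tested with edgeR 4.0.16 (TMM, filterByExpr, quasi-likelihood, Benjamini-Hochberg over all genes tested, R 4.3.3). Samples of all labelled groups entered 1 fit, and the sham sets another. Shares were compared with exact permutation tests and co-detection with exact sign-flip tests (SciPy 1.17.1), two-sided. Pairs of genes were tested over samples with at least 5 positive and 5 negative cells. A cell was positive with at least 3 UMIs and 20 CPM, and a cluster marker was high at 1.5-fold in at least 25% of cells. The fits over all neurons of a sample, and the PEP2-like fit at 1 day, were tested on simulated data. Depth was 4002503 to 28975829 UMIs per labelled sample and 14004136 to 40732975 per added sham library. Intervals for counts of 0 cover counting error only (a floor of 3 cells).

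Named were the 6 members and, of 3 lists of related genes, those with an adjusted p under 0.05, the 3 highest in labelled samples and the lowest p in each comparison, with the 5 genes most like each member. Some genes that this rule names are not reported here. The members and lists were chosen with earlier results of these data known. Alternatives were DESeq2 1.42.0, its size factors, no low-count filter, thinning to 20000 or 50000 UMIs and all 37 mitochondrial genes. Others were year of reverse transcription as a term and 17-1 merged with 17-2 and 19-1 with 19-2. So were other positive calls and clusterings, and each sample left out. Fits within a year, with date of reverse transcription as a block, and of sham sets within a type were chosen after seeing the data.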

Additional observations from a re-analysis of the deposited data

Results flagged for a closer look

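Of 48 groups of 4 to 10 samples, 3 held a sample that stood apart from the rest of its group by Dixon's test, which chance gives in about 1 of 20 groups. Trpa1 stood at 70.9 CPM in SNC 1 day sample 13 and at 19.5 to 27.2 CPM in the other 3. The share of Trpv1-positive neurons was lowest in added sham library S7, at 56.3%. The share of Trpm2-positive neurons was highest in added sham library S1, at 6.82%.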

How the results depend on the processing

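Labelled sham has 4 samples, 3 of them from the earlier year of reverse transcription. All SNC 1 and 3 day samples are from the later year, while samples S, 8 and 9 at 7 days are from the earlier one. The SNC side pools crushed and spared axons. Labelled sham itself carried high levels of the injury genes Atf3 (579.8 CPM) and Sprr1a (152.2 CPM). An SNC value is thus a difference from that baseline, and not from neurons low in injury genes. This baseline, the few sham samples and the pooling limit every SNC comparison, and year limits above all those at 1 and 3 days. No paired analysis was possible because replicate numbers are not shared between the groups, and dates of reverse transcription shared by 9 samples were used as a block instead. Of the other alternatives to single values, 273 planned ones kept direction and side of the threshold.

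After SNC, DESeq2 called 17 genes at 1 day and 1 at 3 days. At 1 day 1 gene was called with year as a term and 1 within the later year. At 3 days 1 was called without the filter, 1 with thinned cells and 1 with year as a term, and at 7 days 1 within the later year. With date as a block 1, 3 and 0 genes were called at 1, 3 and 7 days. Leaving out 1 sample gave 0 genes at 1 and 7 days and 0 to 1 at 3 days (1 without sample 17-3). None of these calls touched a member.

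The direction of the uncalled member values changed as follows, and the cause was not tested. With year as a term it was −0.55 for Trpv1, 0.45 for Trpa1, 0.15 for Trpm8, 0.37 for Trpm3 and 0.27 for Trpm2 at 1 day, −0.51 for Trpv1 and 0.14 for Trpm2 at 3 days, and 0.048 for Trpm8 at 7 days. Within the later year it was −0.56 for Trpv1, 0.072 for Trpa1, 0.76 for Trpm8, 0.56 for Trpm3 and 0.19 for Trpm2 at 1 day, −0.53 for Trpv1 and 0.048 for Trpm2 at 3 days, and 0.93 for Trpm8 and 0.22 for Trpm3 at 7 days. With date as a block it was −0.96 for Trpv1 and 0.91 for Trpm2 at 1 day, −1.07 for Trpv1, −0.74 for Trpm8 and 0.32 for Trpm2 at 3 days, and 0.51 for Trpm2 at 7 days. Within the earlier year it was 0.17 for Trpa1 and 0.033 for Trpm2 at 7 days. With cells thinned to 20000 UMIs it was 0.20 for Trpa1, −0.021 for Trpv2 and 0.15 for Trpm3 at 1 day, −0.040 for Trpm3 at 3 days, and 0.085 for Trpa1 and 0.029 for Trpm3 at 7 days. With 17-1 merged with 17-2 and 19-1 with 19-2 it was 0.067 for Trpa1 at 1 day, and 0.018 for Trpa1 and 0.024 for Trpm2 at 7 days. With all mitochondrial genes in the limit Trpm8 was −0.056 at 3 days.

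Leaving out 1 sample gave, at 1 day, −0.17 to 0.42 for Trpv1, −0.68 to 0.094 for Trpa1, −0.79 to 0.23 for Trpm8 and −0.31 to 0.11 for Trpm2. At 3 days it gave −0.13 to 0.45 for Trpv1, −0.17 to 0.59 for Trpm8, −0.029 to 0.14 for Trpv2 and −0.074 to 0.35 for Trpm3. At 7 days it gave −0.65 to 0.11 for Trpv1, −0.32 to 0.11 for Trpa1, −0.42 to 0.43 for Trpm8 and −0.19 to 0.23 for Trpm2.

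Between the sham sets 5051 to 6403 genes were called with 1 sample left out, and 3481 in NF-like, 4174 in NP-like and 2910 in SST-like cells, where fewer genes were tested. Trpv1 (1.30 to 1.94) and Trpa1 (−2.06 to −1.67) passed without any single sample, Trpm2 did not without labelled sham Xin (−1.01, adjusted p = 0.0688, edgeR), and Trpv2 passed without S4 (0.38, adjusted p = 0.0266, edgeR). Trpm2 was not tested with thinned cells. In SST-like cells Trpm8 was 0.26 and Trpv2 −0.10.

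Within neuron types DESeq2 called 1 member value, Trpv1 in PEP2-like neurons at 1 day. Without the filter 3 passed, this one (2.68, adjusted p = 2.29e-06, edgeR), Trpv1 in PEP1-like neurons at 1 day (adjusted p = 0.0468) and Trpa1 in PEP3-like neurons at 7 days (adjusted p = 0.0031). With 1 sample left out edgeR called 0, and the PEP2-like Trpv1 value ran from 2.27 to 2.96.

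At 1 UMI or more 15 pairs of members passed, at 50 CPM 3, and in added sham 4. Those of added sham were Trpa1 with Trpv1 and the pairs of Trpv2 with Trpa1, Trpm8 and Trpm3. At 50 CPM the difference was −10.1 points for Trpm8 with Trpv1, −3.61 for Trpm8 with Trpa1 and −8.87 for Trpm8 with Trpv2, which was −0.83 with thinned cells. In added sham it was −5.88 for Trpa1 with Trpm8. At resolution 0.3 the highest and lowest cluster differed beyond the spread for 4 members in place of 5 (not Trpv2). With the sets clustered together, or cells thinned, 5 members differed, with Trpm2 and without Trpv2.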
